A study of Rattus norvegicus with 40 samples.

Results

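Mt2A, Mt3, Mtf1, Slc30a1 and Slc30a3 are 5 genes of zinc binding, zinc sensing and zinc transport, measured in rat cerebral cortex after hypoxic preconditioning, in which the animal breathes air low in oxygen without lasting harm, and after a sham exposure. Their probe sets were those that the platform annotation assigns to 1 gene only, and probe sets annotated to several genes named none. The 5 genes had 7 such probe sets, among 14217 genes named in this way. Of the 7 probe sets, 6 reached the minimum level for testing and together covered all 5 genes. The probe set below that minimum is the third of Mtf1, whose values are given as a description.

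The preconditioned group had 20 arrays and the sham group, which the labels describe as kept in normal oxygen, had 20. Per the labels, the tissue was cerebral cortex of the rat and the molecule was total RNA. No strain, genotype, age, oxygen level or length of exposure is given in the sources used here, and no agent other than the change in oxygen is named. The sample numbers 1 to 20 of each group are listed 5 preconditioned and then 5 sham at a time. The title of the first preconditioned sample holds no number, and it was taken as number 1 by its place in the list. This gives 4 number runs of 5 arrays per group, 1 to 5, 6 to 10, 11 to 15 and 16 to 20. What a run stands for is not stated, so run and anything that goes with it cannot be told apart. Nothing in the labels says that each sample was a separate animal. The p-values therefore set each difference only against the spread among these samples, and some or all of that spread may be technical.

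Metallothioneins are small cysteine-rich proteins that hold zinc and copper ions and release them again. Mt2A (called Mt2 in many rodent studies) is made in many tissues and in the brain mainly by astrocytes, and it is induced by metals, glucocorticoids and stress. Mt3 is the metallothionein of the nervous system and was first described as a factor that inhibits neuronal growth. Mtf1 encodes the transcription factor that senses free zinc and binds metal response elements in the promoters of the metallothionein genes and of Slc30a1. Slc30a1 encodes ZnT1, which exports zinc across the plasma membrane. Slc30a3 encodes ZnT3, which loads zinc into the synaptic vesicles of a class of cortical glutamatergic neurons.

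The 250 bases before the start of Mt2A, Mt3 and Slc30a1 are shown because they hold the sequence core through which the zinc sensor acts. On the arrays, Mt2A passed the test threshold between preconditioned and sham arrays, while Mt3 and Slc30a1 did not. The responses of these genes were not tested against each other. The bases come from the RefSeq promoter table of the assembly GRCr8 and are written 5' to 3' on the strand of the gene. Capitals mark each core of the metal response element, TGCACNC or TGCGCNC on either strand. Both strands were searched.
Mt2A, chr19:10838709-10838958, minus strand: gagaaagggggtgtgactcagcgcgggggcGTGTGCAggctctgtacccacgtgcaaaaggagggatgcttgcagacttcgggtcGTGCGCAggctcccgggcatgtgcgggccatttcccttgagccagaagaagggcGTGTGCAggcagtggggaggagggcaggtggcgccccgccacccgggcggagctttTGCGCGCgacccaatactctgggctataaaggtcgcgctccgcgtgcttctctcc
Mt3, chr19:10856081-10856330, minus strand: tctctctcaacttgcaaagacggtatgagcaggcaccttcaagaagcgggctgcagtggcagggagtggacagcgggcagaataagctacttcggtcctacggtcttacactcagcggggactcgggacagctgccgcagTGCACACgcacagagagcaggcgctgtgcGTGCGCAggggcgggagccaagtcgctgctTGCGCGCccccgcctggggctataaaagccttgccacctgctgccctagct
Slc30a1, chr13:106021769-106022018, plus strand: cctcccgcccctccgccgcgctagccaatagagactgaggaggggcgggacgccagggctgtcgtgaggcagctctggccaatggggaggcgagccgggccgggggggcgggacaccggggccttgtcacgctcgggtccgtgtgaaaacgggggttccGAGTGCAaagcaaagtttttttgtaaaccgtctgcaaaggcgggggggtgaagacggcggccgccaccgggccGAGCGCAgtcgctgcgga

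The Mt2A window held 4 metal response cores, the Mt3 window 3 and the Slc30a1 window 2. At least 1 such core was present in 20.6% of 33469 RefSeq windows of this length, and at least 2 in 4.9%. The core of the hypoxia response element, ACGTG on either strand, occurred at 1 place in the Mt2A window, where CACGTG reads the same on both strands, and not in the windows of Mt3 or Slc30a1, against 16.6% of all windows with at least 1. The Mtf1 window held 2 metal response cores and no hypoxia core. The window listed for Slc30a3 held no metal response core and, like that of Mt2A, CACGTG at 1 place. A match is a description of the letters and not a mapped binding site. Mt1, Mt2A and Mt3 lie next to each other on chromosome 19 in the RefSeq gene table.

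Mt2A was higher after preconditioning in the runs 6 to 10 and 11 to 15, by 1.79-fold and 1.60-fold, and did not differ beyond the spread of the arrays in the runs 1 to 5 and 16 to 20. All intensities here are the deposited linear values of 1 probe set, and levels of different genes are not compared with each other. In the run 6 to 10, the preconditioned arrays had 574.7, 402.4, 412.1, 334.7 and 565.8, against 317.0, 176.7, 292.7, 212.7 and 285.3 on the sham arrays. Every preconditioned array lay above the highest sham array, the lowest of them only slightly. The difference on the log2 scale was 0.84 ± 0.14 (SE, n = 5 each), with a limma adjusted p of 0.00033 and a 95% interval of 0.55 to 1.12. Of all 18625 probe sets tested, 2.22% passed the threshold in this run in either direction, 1.1% higher and 1.12% lower, and Mt2A ranked 28 by p.

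In the run 11 to 15, the preconditioned arrays had Mt2A intensities of 374.2, 502.7, 325.0, 303.5 and 359.5, against 206.9, 288.1, 241.6, 236.3 and 188.4 on the sham arrays. The groups again did not overlap, and preconditioned array 12 was the brightest. The log2 difference was 0.68 ± 0.14 (SE, n = 5 each), with a limma adjusted p of 0.03 and a 95% interval of 0.39 to 0.96. Of all probe sets, 0.0698% were called in this run in either direction and 0.0483% were called higher, and Mt2A ranked 13. This call was the less firm of the pair, since the adjusted p was above 0.05 in 7 of the 10 fits that left out 1 array, in which it lay between 0.0173 and 0.197. The difference itself lay between 0.56 and 0.76 in those fits, which did not pair samples by number. With samples of the same number treated as a block and all arrays kept, the limma adjusted p was 0.00107. In 1.65% of probe sets every preconditioned array lay above every sham array in the run 6 to 10, and in 1.15% in the run 11 to 15.

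In the run 1 to 5, the Mt2A intensities were 300.4, 279.2, 221.3, 268.8 and 241.1 on preconditioned arrays, against 210.9, 251.7, 221.1, 232.8 and 237.8 on sham arrays. The groups overlapped, with 3 of 5 preconditioned arrays above all sham arrays. The difference of 0.18 ± 0.14 (SE, n = 5 each) had a limma adjusted p of 0.561, in a run where 2.39% of probe sets were called. In the run 16 to 20, the preconditioned arrays had 294.8, 302.9, 284.9, 301.1 and 307.7, against 301.5, 247.0, 268.1, 312.5 and 364.0 on the sham arrays. The preconditioned values lay within the sham range and close to each other, with an SD of 0.04 on the log2 scale, against 0.21 on the sham arrays. The difference was 0.01 ± 0.14 (SE, n = 5 each), with a 95% interval of -0.27 to 0.29 and a limma adjusted p of 0.998. No probe set (0%) was called in this run, where 952 had an unadjusted p under 0.05.

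Over all 40 arrays, Mt2A was higher after preconditioning by 0.43 ± 0.10 on the log2 scale (SE, n = 20 each), or 1.34-fold. The limma adjusted p was 0.0191, and 18 of 20 preconditioned arrays lay above the sham median. In this comparison 0.891% of all probe sets were called in either direction, and 0.607% of all probe sets were called higher. The call rests on both middle runs. Without the run 6 to 10 the difference was 0.29 with an adjusted p of 0.336, and without the run 11 to 15 it was 0.34 with an adjusted p of 0.134. The interaction test, which asks whether the difference itself differed between the 4 runs, gave a limma adjusted p of 0.0425 for Mt2A, and 0.762% of probe sets were called by it. That call lay close to the threshold. It ended in 25 of 40 fits that left out 1 array, whose adjusted p ranged from 0.014 to 0.0854.

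**Figure D1:**
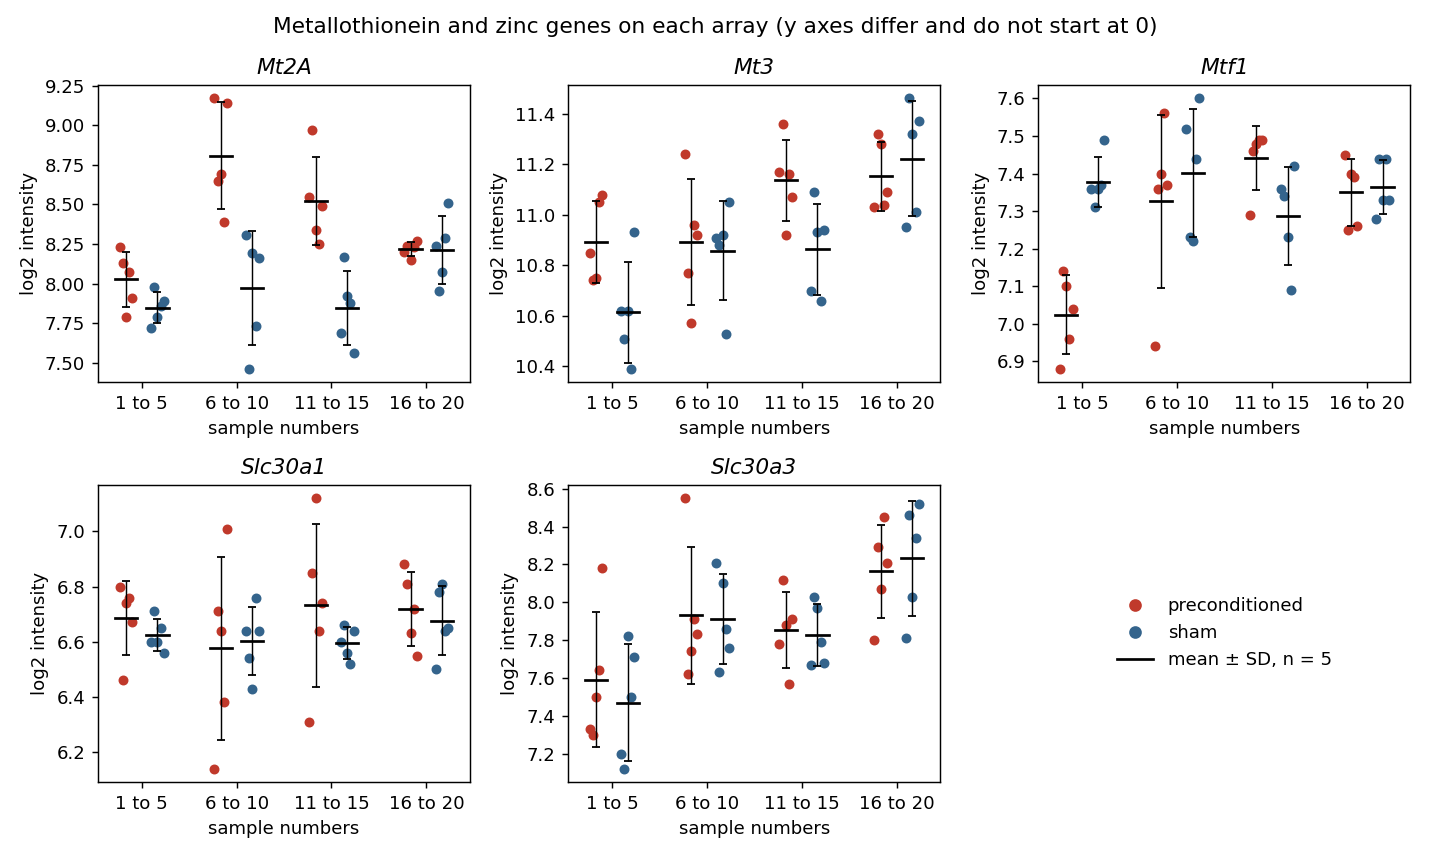
Deposited intensity of each of the 5 genes on every array (log2 axis), by number run, with preconditioned arrays left of sham arrays; bars give the group mean and SD on the log2 scale (n = 5). The Mt2A groups separate in the runs 6 to 10 and 11 to 15, the Mtf1 groups in the run 1 to 5, and Mt3 and Slc30a3 are higher on sham arrays 16 to 20 than on sham arrays 1 to 5.

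Mt3, which neurons and astrocytes of the brain make without the strong induction by metals seen for other metallothioneins, passed the threshold in no run. In the run 1 to 5, its intensities were 1851, 1705, 1726, 2124 and 2166 on preconditioned arrays, against 1569, 1462, 1579, 1340 and 1957 on sham arrays. The groups overlapped through sham array 5. The log2 difference of 0.28 ± 0.11 (SE, n = 5 each) had a limma adjusted p of 0.19. In the run 11 to 15, the preconditioned arrays had 2298, 2622, 1935, 2291 and 2149, against 1665, 2173, 1954, 1615 and 1966 on the sham arrays. The groups overlapped here as well, and the difference was 0.27 ± 0.11 with an adjusted p of 0.403.

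In the other runs the Mt3 groups lay closer together. The run 6 to 10 had 2420, 1742, 1519, 1998 and 1943 on preconditioned arrays, against 1928, 1887, 1941, 1478 and 2117 on sham arrays. The run 16 to 20 had 2096, 2556, 2492, 2099 and 2173 on preconditioned arrays, against 1982, 2807, 2550, 2066 and 2652 on sham arrays. Their log2 differences were 0.03 with a 95% interval of -0.19 to 0.26, and -0.07 with an interval of -0.30 to 0.16. Over all arrays Mt3 gave 0.13 ± 0.07 (SE, n = 20 each), with a limma adjusted p of 0.424, and the interaction test gave 0.455. The intervals of 0.05 to 0.51 in the run 1 to 5 and 0.04 to 0.50 in the run 11 to 15 include 0.43, the Mt2A difference over all arrays. In the same runs Mt2A had 0.18, inside the Mt3 interval of that run, and 0.68, above it.

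Mtf1, the zinc sensor, was lower after preconditioning in the run 1 to 5. The preconditioned arrays had 117.7, 140.6, 136.7, 124.8 and 131.6, against 164.1, 159.0, 164.3, 165.3 and 179.8 on the sham arrays. Every preconditioned array lay below every sham array, which held for 2.28% of all probe sets in this run. The log2 difference was -0.36 ± 0.09 (SE, n = 5 each), or 0.782 times the sham level, with a limma adjusted p of 0.0168 and a 95% interval of -0.53 to -0.18. Mtf1 ranked 204 by p in a run where 1.15% of probe sets were called lower.

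The fall was that of 1 of the 3 Mtf1 probe sets. The second, which also passed the minimum level, had 74.1, 47.5, 66.2, 58.1 and 28.0 on preconditioned arrays 1 to 5, against 51.5, 78.9, 48.9, 58.8 and 53.9 on sham arrays 1 to 5. These groups overlapped widely, and the difference was -0.15 ± 0.17 (SE, n = 5 each), with a limma adjusted p of 0.727. The third lay near the floor, with 22.1, 12.0, 25.8, 23.2 and 25.9 on preconditioned arrays, against 26.4, 28.6, 33.6, 26.2 and 25.0 on sham arrays. Its difference, in a fit with no minimum level, was -0.32 ± 0.22 with an adjusted p of 0.604. All 3 probe sets had a negative difference, and the brightest alone passed the threshold. With the run 1 to 5 fitted alone, the adjusted p of the brightest was 0.0547, and without sham array 5 it was 0.0513.

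In the later runs the groups of the brightest Mtf1 probe set overlapped. The run 6 to 10 had intensities of 122.8, 164.1, 168.8, 188.4 and 165.5 on preconditioned arrays, against 183.6, 150.3, 149.4, 173.4 and 193.5 on sham arrays. Preconditioned array 6 was the lowest, and the difference of -0.08 ± 0.09 had a limma adjusted p of 0.697. The run 11 to 15 had 156.5, 175.9, 178.3, 179.9 and 179.2 on preconditioned arrays, against 164.7, 161.9, 149.6, 136.2 and 171.3 on sham arrays. On 4 of 5 preconditioned arrays Mtf1 was above its highest sham value, and the difference of 0.15 ± 0.09 did not pass the threshold, with a limma adjusted p of 0.578. The run 16 to 20 gave -0.01 ± 0.09 and an adjusted p of 0.997, from 152.0 to 174.9 on preconditioned arrays and 155.4 to 173.8 on sham arrays. Over all arrays the difference was -0.07 ± 0.05 (SE, n = 20 each; adjusted p = 0.549), and the interaction test gave an adjusted p of 0.11. The second Mtf1 probe set had differences of -0.16, -0.25 and -0.19 in these later runs, with limma adjusted p of 0.686, 0.666 and 0.956. Over all arrays it gave -0.19 ± 0.09 with an adjusted p of 0.297, and its interaction had 0.989. The third, in the fit with no minimum level, had 0.01, 0.11 and -0.34 in the later runs.

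**Figure D2:**
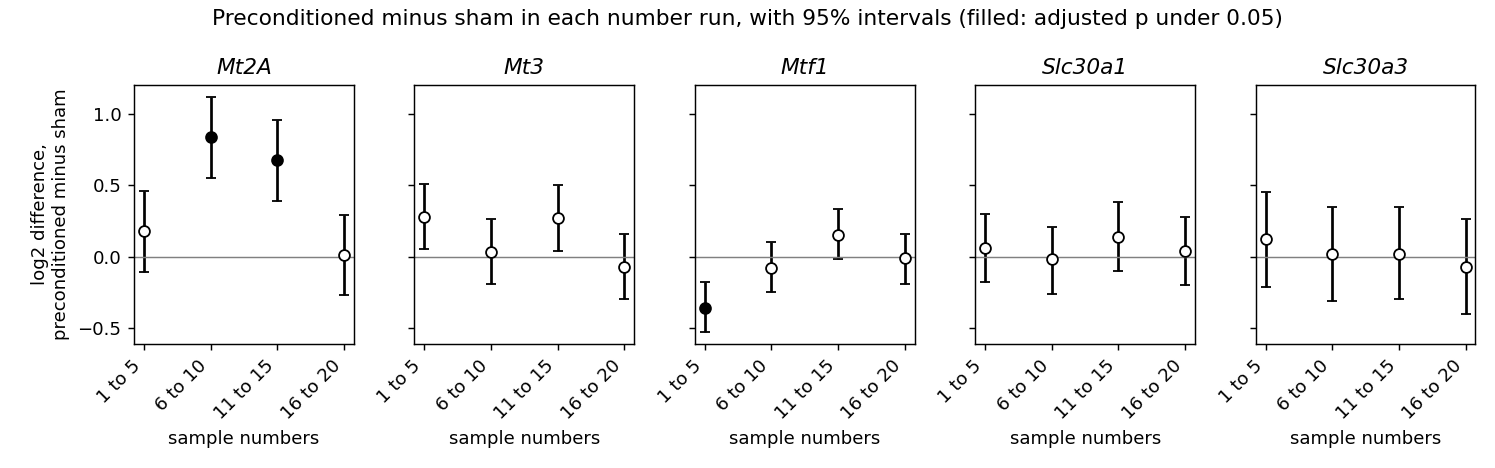
Difference in log2 intensity, preconditioned minus sham, of the 5 genes in each number run, with 95% intervals from limma; filled points passed an adjusted p of 0.05. Mt2A was called higher in the runs 6 to 10 and 11 to 15, and Mtf1 was called lower in the run 1 to 5.

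Slc30a1, whose product lowers the zinc of the cytosol, passed the threshold in no comparison. In the run 6 to 10 its intensities were 70.5, 104.6, 99.5, 83.2 and 128.9 on preconditioned arrays, against 99.4, 92.9, 86.1, 108.5 and 99.5 on sham arrays. In the run 11 to 15 they were 79.3, 115.3, 139.5, 99.9 and 107.2 on preconditioned arrays, against 96.8, 101.4, 94.1, 91.7 and 99.7 on sham arrays. In both runs the preconditioned arrays lay on both sides of the sham range. Their SD was 0.33 and 0.30 on the log2 scale, against 0.13 and 0.06 on the sham arrays, and this difference in spread was not tested.

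The Slc30a1 intensities lay closer together in the other runs. They were 88.2 to 111.8 on preconditioned arrays and 94.4 to 104.7 on sham arrays in the run 1 to 5, and 93.4 to 117.8 on preconditioned arrays and 90.7 to 112.3 on sham arrays in the run 16 to 20. Taking the runs in order, the log2 differences were 0.06, -0.02, 0.14 and 0.04, each with an SE of 0.12 and n = 5 per group. The limma adjusted p was 0.752 or higher in every run. Over all arrays the difference was 0.05 with a 95% interval of -0.06 to 0.17 (n = 20 each) and an adjusted p of 0.703.

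Slc30a3 passed the threshold in no comparison between preconditioned and sham arrays. In the run 1 to 5 its intensities were 161.1, 157.6, 181.3, 199.2 and 289.2 on preconditioned arrays, against 147.3, 138.6, 225.6, 181.2 and 209.0 on sham arrays. In the run 6 to 10 they were 374.6, 196.4, 213.7, 240.1 and 227.6 on preconditioned arrays, against 295.5, 198.3, 273.8, 232.1 and 216.5 on sham arrays. The highest values of these runs were those of preconditioned arrays 5 and 6, and the groups otherwise shared the same range. The differences were 0.12 and 0.02 with an SE of 0.16, and without those arrays they were -0.03 and -0.14.

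In the run 11 to 15 the Slc30a3 intensities were 189.5 to 279.1 on preconditioned arrays and 203.4 to 262.3 on sham arrays, and in the run 16 to 20 they were 223.1 to 348.9 on preconditioned arrays and 225.0 to 366.2 on sham arrays. The log2 differences were 0.02 with a 95% interval of -0.30 to 0.35, and -0.07 with an interval of -0.40 to 0.26. Over all arrays the difference was 0.02 ± 0.10 (SE, n = 20 each), with a limma adjusted p of 0.941.

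The level on the sham arrays differed between the runs for 2 of the 5 genes, Mt3 and Slc30a3. In a moderated F-test over the 4 sham means, in which 13.7% of all probe sets were called, the limma adjusted p was 0.00259 for Mt3 and 0.00917 for Slc30a3. It was 0.157 for Mt2A, 0.739 for Mtf1 and 0.936 for Slc30a1. The comparison of the last sham run with the first was the one with the most calls, 14.8% of all probe sets and 6.94% higher.

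The sham arrays of the run 16 to 20 had Mt3 intensities between 1982 and 2807, all above the sham arrays of the run 1 to 5, which lay between 1340 and 1957. Such a separation was seen for 4.87% of all probe sets. The difference was 0.61 ± 0.11 on the log2 scale (SE, n = 5 each), or 1.52-fold, with a limma adjusted p of 0.00046. The sham mean of Mt3 was 10.62, 10.86, 10.86 and 11.22 on the log2 scale in the order of the runs. The last run was also above the run 6 to 10, by 0.36 ± 0.11 with an adjusted p of 0.0305, where 11.4% of probe sets were called. The runs 6 to 10 and 11 to 15 did not differ from each other or from the run 1 to 5 beyond their spread, with adjusted p of 0.296 or higher. In these pairs of runs, 1.26% (6 to 10 against 1 to 5), 0.677% (11 to 15 against 1 to 5) and 0.29% (11 to 15 against 6 to 10) of all probe sets were called, and 0.65% between the runs 16 to 20 and 11 to 15.

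The sham arrays of the run 16 to 20 had Slc30a3 intensities of 225.0, 352.0, 261.2, 323.9 and 366.2, against 147.3, 138.6, 225.6, 181.2 and 209.0 on the sham arrays of the run 1 to 5. The groups overlapped by 1 array, the lowest of the later run and the highest of the earlier run lying next to each other. The difference was 0.76 ± 0.16 (SE, n = 5 each), or 1.70-fold, with a limma adjusted p of 0.00147. The sham means of Slc30a3 were 7.47, 7.91, 7.83 and 8.23 on the log2 scale in the order of the runs, and no pair of neighbouring runs passed the threshold. On preconditioned arrays the means were 7.59, 7.93, 7.85 and 8.16 for Slc30a3, and 10.90, 10.89, 11.13 and 11.15 for Mt3.

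For Mt2A, the sham mean of the run 16 to 20 was 8.21 on the log2 scale, against 7.85 in the run 1 to 5, a difference of 0.36 ± 0.14 with a limma adjusted p of 0.0762. The sham means of the runs 6 to 10 and 11 to 15 were 7.97 and 7.84, while the preconditioned means of those runs were 8.81 and 8.52. In the last run the preconditioned mean was 8.22. The sham mean of the last run was above those of the middle runs by 0.24 and 0.36, with adjusted p of 0.289 and 0.179, and preconditioned means were not tested between runs. Whether the change of sham level across the runs has a part in the interaction for Mt2A was not tested.

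**Figure D3:**
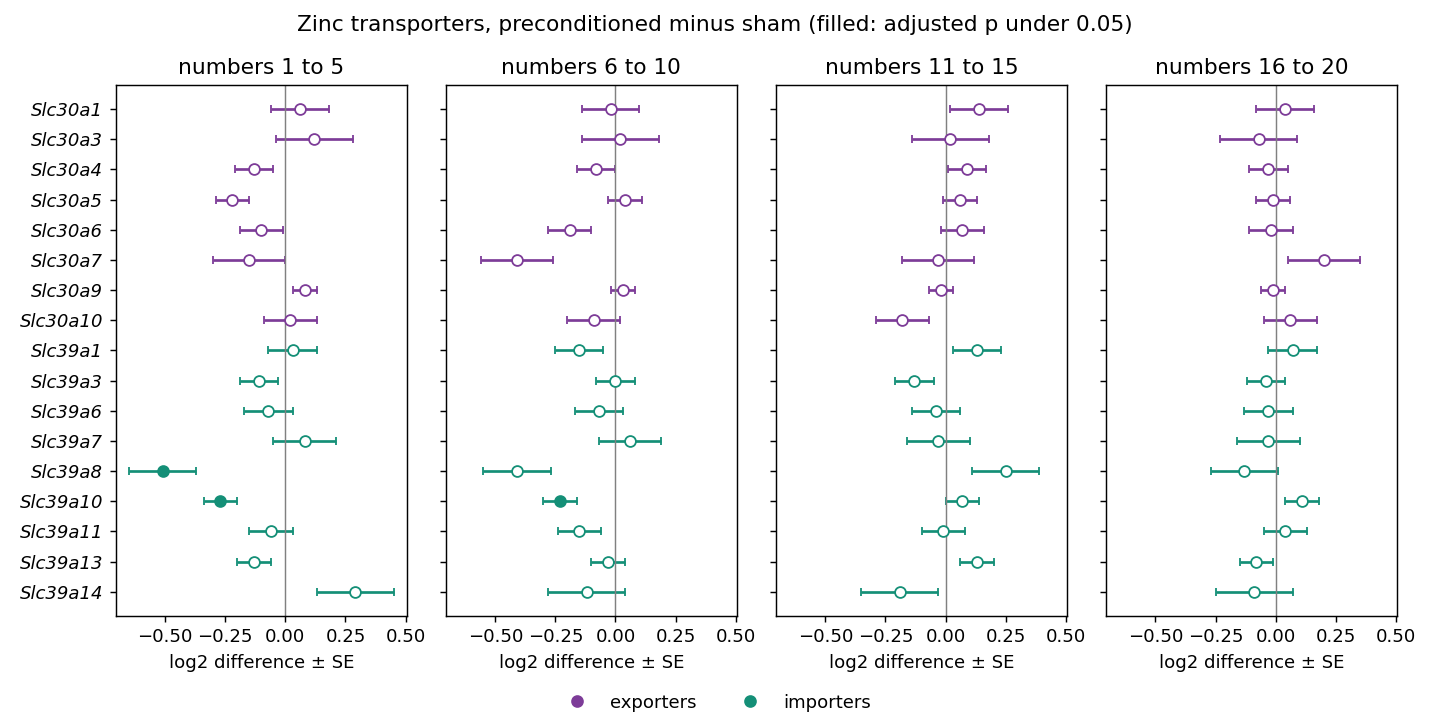
Difference in log2 intensity, preconditioned minus sham, of the tested zinc exporters (Slc30a family) and zinc importers (Slc39a family) in each number run; filled points passed a limma adjusted p of 0.05. The called genes were Slc39a8 and Slc39a10, both lower.

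Of the other tested zinc transporters, 2 were called in any run, and both were importers. Of 10 zinc exporters of the Slc30a family, which lower cytosolic zinc, 8 had a tested probe set, Slc30a1 and Slc30a3 among them. None passed the threshold in limma in any run or over all arrays, and 1, 2, 0 and 0 had an unadjusted p under 0.05 in the order of the runs and 0 over all arrays. Of all probe sets, 16.6%, 16.8%, 9.85% and 5.11% had such a p in the runs and 14.9% over all arrays. Their median log2 difference was -0.04, -0.05, 0.04 and -0.01, beside -0.03, -0.02, 0.00 and 0.00 over all probe sets tested. Across the sham runs, Slc30a3 was the exporter that passed, 1 of 8, beside 13.7% of all probe sets.

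Of 14 zinc importers of the Slc39a family, which raise cytosolic zinc, 9 were tested. None was called higher in any run. In the run 1 to 5, 2 of 9 were called lower, Slc39a8 and Slc39a10, beside 1.15% of all probe sets, and in the run 6 to 10, 1 of 9, Slc39a10, beside 1.12%. Without preconditioned array 5 or without sham array 5, none was called in the run 1 to 5, with an adjusted p of 0.062 and 0.0547 for Slc39a10. None was called in the later runs or over all arrays, where 0, 0 and 1 had an unadjusted p under 0.05. The median difference of the importers was -0.07, -0.12, -0.01 and -0.03 in the order of the runs.

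Slc39a10 encodes ZIP10, an importer of the plasma membrane. Its intensities in the run 1 to 5 were 699.8, 693.1, 700.9, 750.4 and 656.7 on preconditioned arrays, against 777.8, 849.2, 835.0, 858.0 and 891.3 on sham arrays. Every preconditioned array lay below every sham array, which held for 2.28% of all probe sets in this run. The log2 difference was -0.27 ± 0.07 (SE, n = 5 each), with a limma adjusted p of 0.0179. The difference in the run 6 to 10 was -0.23 ± 0.07 with an adjusted p of 0.0455, a call that ended in 7 of 10 fits that left out 1 array. The differences of 0.07 and 0.11 in the later runs had adjusted p of 0.77 and 0.927. The interaction test gave Slc39a10 an adjusted p of 0.0181, which lay between 0.00888 and 0.0371 when each array was left out in turn and was 0.0954 with the arrays centred on their medians.

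Slc39a8 encodes ZIP8, which carries zinc, manganese and iron into cells. It had 75.3, 60.2, 77, 51.2 and 45.8 on preconditioned arrays 1 to 5, against 77, 76.8, 84.2, 96.4 and 99.2 on sham arrays 1 to 5. The groups overlapped by the third preconditioned array, which lay level with the first sham array. The difference of -0.51 ± 0.14 (SE, n = 5 each) had a limma adjusted p of 0.0349, and the call ended in 6 of 10 fits that left out 1 array, with adjusted p up to 0.155. With the sample number as a replicate block the adjusted p was 0.0531. In the run 6 to 10 the difference of -0.41 ± 0.14 did not pass, with an adjusted p of 0.101.

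Across the sham runs, 2 of 9 importers were called, Slc39a1 and Slc39a7, beside 13.7% of all probe sets. None was called without sham array 19, where the adjusted p was 0.0536 for Slc39a1 and 0.0553 for Slc39a7, or without sham array 20, where it was 0.0686 and 0.0573. The call of Slc39a1 also ended without sham array 17 (0.0723), and that of Slc39a7 without sham array 1 (0.165) or 2 (0.151). Slc39a1 (ZIP1, of the plasma membrane) lay between 296.9 and 353.9 on sham arrays 16 to 20. All of these were above the range of 223.6 to 284.1 on sham arrays 1 to 5, as was seen for 4.87% of all probe sets. The log2 difference was 0.36 ± 0.10 (SE, n = 5 each) with a limma adjusted p of 0.00985. Slc39a7 (ZIP7, which moves zinc out of the endoplasmic reticulum and Golgi) lay between 248.4 and 331.5 on sham arrays 16 to 20, against 168.7 to 262.3 on sham arrays 1 to 5, with overlap. Its difference was 0.45 ± 0.13 with an adjusted p of 0.0194. Of 10 genes of copper handling, the other metal that metallothioneins bind, none passed the threshold in limma in any run, over all arrays or across the sham runs. In the order of the runs, 2, 1, 1 and 0 of them had an unadjusted p under 0.05, with 0 over all arrays and 1 across the sham runs. Of all probe sets, 16.6%, 16.8%, 9.85% and 5.11% had such a p in the runs, 14.9% over all arrays and 29.2% across the sham runs.

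Through single-gene probe sets, the remaining metallothioneins gave little further measurement. A probe set annotated to Mt1f, Mt1 and Ttr together is described among the results flagged for a closer look. Of 6 listed, 4 had a single-gene probe set and 2 were tested, Mt2A and Mt3. The single-gene probe set of Mt1 lay under the floor of 16 on 32 of 40 arrays, with a highest intensity of 25.5. That of Mt4, a metallothionein of stratified epithelium, reached 39.5 at most.

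The genes whose level was most like that of Mt2A over the 40 arrays were Gfap (Pearson r = 0.79), Sptbn1 (0.67) and Tmem100 (0.66), out of 14272 other single-gene probe sets. Gfap encodes an intermediate filament of astrocytes, and Sptbn1 a spectrin of the membrane skeleton. With the mean of each group and run taken out, the correlations were 0.41, 0.33 and 0.40. Within the 20 preconditioned arrays r between Mt2A and Gfap was 0.69, and within the 20 sham arrays it was 0.68. These are descriptions over arrays that share groups and runs.

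**Figure D4:**
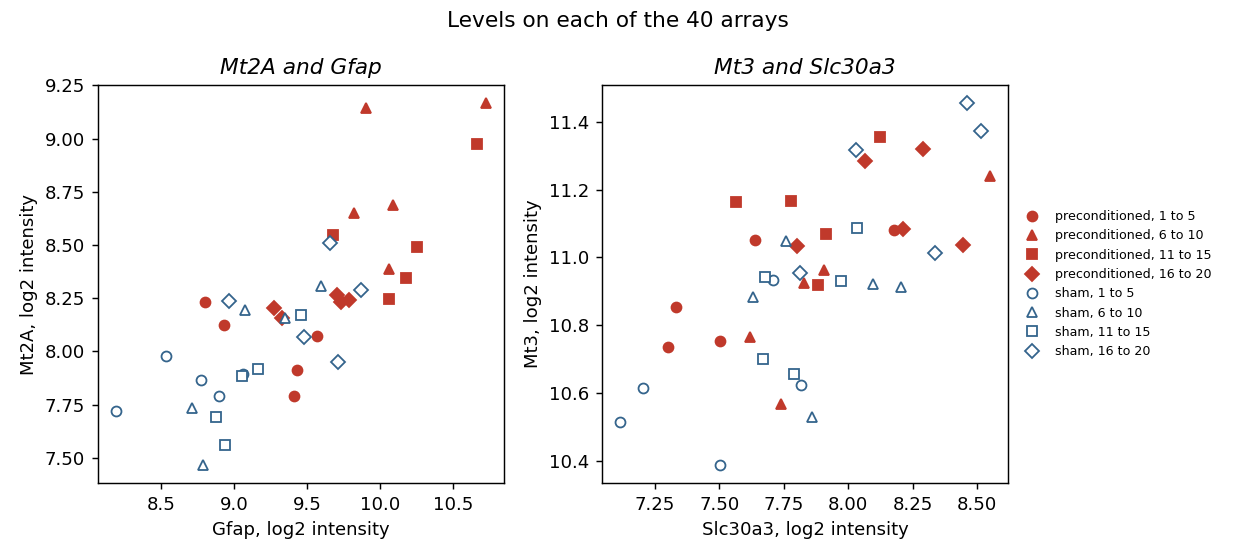
Log2 intensity of Mt2A against Gfap and of Mt3 against Slc30a3 on each of 40 arrays, preconditioned and sham arrays in separate colours. Mt2A and Gfap rise together over both groups (r = 0.79), and so do Mt3 and Slc30a3 (r = 0.68).

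Gfap, a marker of astrocytes, was called higher in the same runs as Mt2A, by 1.02 ± 0.19 on the log2 scale in the run 6 to 10 (limma adjusted p = 9e-04) and 1.07 ± 0.19 in the run 11 to 15 (adjusted p = 0.00509). In the runs 1 to 5 and 16 to 20 its differences were 0.53 with an adjusted p of 0.12, and 0.03 with an adjusted p of 0.997 (SE 0.19, n = 5 each in every run). Of 11 astrocyte markers tested, 0, 3, 1 and 0 were called higher in the order of the runs and none was called lower, beside 2.39%, 2.22%, 0.0698% and 0% of all probe sets called in either direction. Those called in the run 6 to 10 were Gfap, Aldoc and Glul. In each of the runs 6 to 10 and 11 to 15, 5 of 11 markers had a positive difference, and the median over the markers was -0.09 and -0.02 on the log2 scale, beside -0.02 and 0.00 over all probe sets. Aqp4, the water channel of astrocyte endfeet, had -0.16 and -0.11 in these runs, and Gjb6, a gap junction gene, -0.26 and -0.34, none of which passed the threshold. The 2 brightest markers, Gja1 and Slc1a3, had differences of 0.13 and 0.12 in the run 6 to 10 and 0.06 and 0.05 in the run 11 to 15, and neither passed the threshold. The summed intensity of the 11 markers was 11406 to 17184 on preconditioned arrays and 9847 to 12952 on sham arrays in the run 6 to 10, and 10426 to 12620 on preconditioned arrays and 10453 to 12221 on sham arrays in the run 11 to 15. More astrocytes and more RNA per astrocyte cannot be told apart in such bulk samples, and their part in the Mt2A result was not tested.

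The genes most like Mt3 were Pcp4 (Pearson r = 0.85), B2m (0.85) and Olfm1 (0.84), and those most like Slc30a3 were Sult4a1 (0.91), Nefl (0.90) and Nrgn (0.89). Nefl encodes a neurofilament, and Nrgn a postsynaptic protein of excitatory neurons that binds calmodulin. With group and run means taken out the correlations were between 0.75 and 0.87 for these 6 genes. Mt3 and Slc30a3 correlated with each other at 0.68 over all arrays and at 0.53 within groups and runs. Within the preconditioned arrays r was 0.63, and within the sham arrays 0.75. Of 8 markers of excitatory neurons, none was called between preconditioned and sham arrays in any run, where 0, 1, 1 and 0 had an unadjusted p under 0.05 in limma (16.6%, 16.8%, 9.85% and 5.11% of all probe sets). Across the sham runs 2 of the 8 were called, beside 13.7% of all probe sets. In the same test 5 of 11 astrocyte markers and 4 of 8 oligodendrocyte lineage markers were called. The counts were 1 of 7 for inhibitory neurons, 1 of 7 for microglia, 2 of 9 for meninges and choroid plexus, and 2 of 8 for hippocampus and striatum. They were 0 of 11 for vessels and 0 of 2 for blood.

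The genes most like Mtf1 were Atf7ip (Pearson r = 0.68), Cops3 (0.66) and Kti12 (0.63). Those most like Slc30a1 were Carf (0.60), Wdr26 (0.59) and Gabrd (0.55). Mtf1 and Slc30a1, a factor and a gene with metal response cores, correlated at 0.24 over the 40 arrays, and Mt2A and Mtf1 at 0.03. The likenesses of this group were lower than those of Mt3 and Slc30a3.

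The tissue label was set against markers of cell types. The brightest markers of cortical neurons, Nrgn and Neurod6 for excitatory and Gad1 and Npy for inhibitory cells, lay at an intensity of 688.4 or more on every array. Those of vessels (Cldn5, Acta2), microglia (C1qb, C1qa), the oligodendrocyte lineage (Olig1, Pdgfra), striatum or hippocampus (Penk, Zbtb20) and blood (Hbb, Alas2) were also measured. Ttr, a defining gene of the choroid plexus, ranged from 62.4 to 6567 over the arrays, beside 3231 to 7635 for Ptgds, a gene of the meninges. Ttr differed by 1.53 ± 0.56 on the log2 scale in the run 6 to 10, with a limma adjusted p of 0.137. The median log2 intensity of preconditioned array 5 was 5.59 and that of preconditioned array 6 was 5.53, while all other arrays had medians of at least 5.71. Without them the Mt2A difference in the run 6 to 10 was 0.75 with an adjusted p of 0.00233, and the Mtf1 difference in the run 1 to 5 was -0.36 with an adjusted p of 0.00934.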

How the data were processed

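For each probe set and array of an Affymetrix rat platform, the deposited table holds 1 intensity value on a linear scale. The sources used here do not name the software of the authors. The mean of each array without its lowest and highest 2% of probe sets was between 150.04 and 150.06, so the arrays had been scaled to a common mean. Gene names came from the platform annotation, and sequences from RefSeq (GRCr8), in which all 5 genes were matched by gene identifier and the symbol was checked.

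Of 31099 probe sets, 57 controls were left out. Intensities under 16 were set to 16 and log2 was taken, with no further normalization. Tests were run on 18625 probe sets, those with a mean log2 value at or above the 40th percentile (intensity 31.9). At the floor lay 0.149% of the tested values. The number of arrays limits the precision. Where a gene had several tested probe sets, the brightest on average stood for it.

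All tests used lmFit and eBayes of limma 3.58.1 (R 4.3.3) with a trend of variance on mean, were two-sided and were adjusted by Benjamini and Hochberg over all 18625 probe sets, with a threshold of 0.05. The fit of 8 group means gave the differences within runs, the interaction and the sham comparisons, of which there were 6 pairs of runs. A fit of 2 groups gave the difference over all arrays. No batch is named in the labels.

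The members and the 14 gene lists were chosen with earlier results of these data known. Beside the 5 members, the text names called genes of the lists of zinc exporters, zinc importers, metallothioneins and copper handling, the 3 genes most correlated with each member, and the 2 brightest markers of each cell type list. Aldoc, Glul, Aqp4, Gjb6 and the values given for Gfap and Ttr lie outside that rule, having been chosen after their values were seen. In the order of the runs, the numbers of called markers were 0, 3, 1 and 0 of 11 for astrocytes and 4, 4, 1 and 0 of 11 for vessels. They were 0, 1, 0 and 0 of 7 for microglia and 1, 1, 0 and 0 of 8 for the oligodendrocyte lineage. For hippocampus and striatum they were 1, 0, 0 and 0 of 8. They were 0 in every run of 8 for excitatory neurons, of 7 for inhibitory neurons, of 9 for meninges and choroid plexus, and of 2 for blood. Of all probe sets, 2.39%, 2.22%, 0.0698% and 0% were called in the runs. The called markers were higher after preconditioning, except for vessels in the run 6 to 10, where 2 were higher and 2 lower.

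The main fits did not treat samples with the same number in both groups as pairs. The correlation of their deviations lay between 0.03 and 0.39, with a median of 0.16, and exceeded 0.1 in 15 of 20. Anything that samples of the same number share is therefore left out of the main fits. Results with the sample number as a block are given at the end. On simulated data with 18625 probe sets and the real spread, in which 100 probe sets were changed by each size, the run 1 to 5 recovered 62% of differences of 0.5 and 96% of differences of 1 on the log2 scale, and the interaction test 40% and 88%. The settings varied were the scaling (quantile or median), the floor (1, or 32 added before log2), the filter (none or 60th percentile), the mean trend, the number as a block, each run fitted alone, other probe sets, and fits without single arrays, runs, or preconditioned arrays 5 and 6. The third Mtf1 probe set in a fit with no filter was added after seeing the data.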

Additional observations from a re-analysis of the deposited data

Results flagged for a closer look

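In the run 11 to 15, preconditioned array 11 had an Mtf1 intensity of 156.5, below the other 4 preconditioned arrays at 175.9 to 179.9. Its distance from the next array was 0.84 of the whole range of the group, above Dixon's 95% limit for 5 samples. It was the 1 such array in 40 groups of 5 that were looked at, and chance gives about 1 in 20.

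The preconditioned minus sham difference of Mt2A differed between the 4 runs, with a limma adjusted p of 0.0425 in the interaction test. The differences were 0.18, 0.84, 0.68 and 0.01 on the log2 scale in the order of the runs, with n = 5 per group in each.

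A probe set that the platform annotation gives to 3 genes, Mt1f, Mt1 and Ttr, was not assigned to any gene. Its intensity was 325.9 to 494.3 on preconditioned arrays and 106.1 to 151.6 on sham arrays in the run 1 to 5. In the run 6 to 10 it was 340.6 to 681.8 on preconditioned arrays and 104.2 to 176.0 on sham arrays, and in the run 11 to 15 it was 168.1 to 600.3 on preconditioned arrays and 100 to 147.3 on sham arrays. The groups did not overlap in these runs. Every preconditioned array lay above every sham array in 1.65% of all probe sets in the run 6 to 10. In the run 11 to 15 this held for 1.15%, and the share for the run 1 to 5 is not given here. The differences were 1.63, 1.81 and 1.04 on the log2 scale (SE 0.21, n = 5 each), with limma adjusted p of 1.6e-06, 3.8e-07 and 0.03. In the run 16 to 20 it was 120.7 to 162.7 on preconditioned arrays and 106.8 to 171.9 on sham arrays, a difference of 0.00 with an adjusted p of 0.999. The single-gene probe set of Ttr had differences of 0.05, 1.53, -0.14 and -0.05 in the order of the runs (SE 0.56), none of which passed the threshold. The single-gene probe set of Mt1 lay at the floor on 32 of 40 arrays. Which of the 3 genes the signal belongs to was not tested.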

How the results depend on the processing

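Over the other settings that keep every array or leave out whole runs or preconditioned arrays 5 and 6, 620 values of the 5 genes kept their direction and their side of the threshold, 15 calls were lost, 2 were gained and 19 values changed sign, none of them called in either setting. The rise of Mt2A in the run 6 to 10 was called in every alternative, with differences of 0.75 to 0.91 and adjusted p up to 0.0391, and in every fit that left out 1 array, with 0.71 to 0.94. For Mt2A in the run 11 to 15 the adjusted p was 0.0606 with median centring, 0.0898 with no filter, 0.0728 with no mean trend and 0.144 with the run fitted alone. For the Mt2A interaction it was 0.0521, 0.117 and 0.0761 under the same first 3 settings, and 0.0802 without preconditioned arrays 5 and 6. Over all arrays the adjusted p of Mt2A was 0.0505 with no filter. For Mtf1 in the run 1 to 5 it was 0.0547 with the run fitted alone. The Mtf1 interaction passed without preconditioned arrays 5 and 6 (0.043) and without preconditioned array 6 (0.0336). The number of the 5 genes called was therefore 0 in place of 1 in these settings: in the run 11 to 15 with median centring, no filter, no mean trend or the run alone; in the interaction with median centring, no filter or no mean trend; over all arrays with no filter or without either middle run; and in the run 1 to 5 with the run alone or the second Mtf1 probe set. It ranged from 0 to 1 over the fits that left out 1 array in the runs 1 to 5 and 11 to 15 and in the interaction. Of the 2 tested metallothioneins, 0 in place of 1 were called wherever the Mt2A call ended. For Mt3, the difference between sham runs 16 to 20 and 6 to 10 had an adjusted p of 0.0679 with no filter and 0.0121 to 0.128 without single arrays, and that between 16 to 20 and 11 to 15, 0.0976 as reported, had 0.0493 with quantile normalization. The importer calls between preconditioned and sham arrays changed in number in 6 of 10 settings in the run 1 to 5 and in 5 of 10 in the run 6 to 10. No importer was called in either run with median centring (Slc39a10 0.112 and 0.189, Slc39a8 0.0523 in the run 1 to 5) or with the run fitted alone (Slc39a10 0.0503 and 0.211, Slc39a8 0.143). With no filter the adjusted p was 0.0539 for Slc39a8 in the run 1 to 5 and 0.0538 for Slc39a10 in the run 6 to 10, without preconditioned arrays 5 and 6 it was 0.104 and 0.102, and with no mean trend Slc39a10 had 0.0623 in the run 6 to 10. Slc39a8 was not tested under the 60th percentile filter. Across the sham runs Slc39a7 had 0.0826 with no filter and 0.0517 with no mean trend. The cause of these changes was not tested.

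The values that changed sign were, with quantile normalization, -0.04 for Mt3 and 0.03 for Slc30a1 in the run 6 to 10 and 0.01 for Mtf1 between sham runs 16 to 20 and 1 to 5; with median centring, 0.05 for Slc30a1 in the run 6 to 10 and 0.02 for Mtf1 in the run 16 to 20; and without preconditioned arrays 5 and 6, -0.03 for Slc30a3 in the run 1 to 5, -0.05 for Mt3, 0.02 for Mtf1, 0.08 for Slc30a1 and -0.14 for Slc30a3 in the run 6 to 10, and -0.03 for Slc30a3 over all arrays. Without the run 1 to 5 the differences over all arrays were 0.02 for Mtf1 and -0.01 for Slc30a3. The second Mtf1 probe set gave -0.25 in the run 11 to 15 and -0.04 between sham runs 16 to 20 and 11 to 15. The third gave 0.01 in the run 6 to 10, and -0.11, 0.08 and 0.19 between sham runs 6 to 10 and 1 to 5, 16 to 20 and 1 to 5, and 16 to 20 and 6 to 10. In fits without single arrays, Slc30a3 ranged from -0.03 to 0.21, -0.14 to 0.10, -0.04 to 0.10 and -0.17 to 0.02 in the order of the runs and from -0.02 to 0.06 over all arrays, Mt3 from -0.05 to 0.12, Mtf1 from -0.13 to 0.02 and Slc30a1 from -0.13 to 0.08 in the run 6 to 10, and Mtf1 from -0.04 to 0.01 and Mt2A from -0.05 to 0.09 in the run 16 to 20. Between sham runs, Mtf1 ranged from -0.03 to 0.01 (16 to 20 minus 1 to 5), -0.02 to 0.07 (6 to 10 minus 1 to 5) and -0.08 to 0.01 (16 to 20 minus 6 to 10), and Slc30a1 from -0.06 to 0.02 (6 to 10 minus 1 to 5).

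With the sample number as a replicate block, no call among the 5 genes changed, the call of Slc39a8 in the run 1 to 5 ended (adjusted p = 0.0531), and the adjusted p of Mt2A was 5.2e-06 in the run 6 to 10 and 0.00107 in the run 11 to 15; sham levels across runs cannot be given under the block. Of the 20 preconditioned arrays, 12 correlated best with the sham array of their own number.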
